A study of Homo sapiens with 36 samples.

Results

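Transcript levels were compared between 2 groups of 9 RNA-seq libraries of HepG2-IGF1R-KO cells. The first group had spent 72 h in insulin-resistant medium and then received insulin. The second was in normal medium without insulin stimulation. These 18 of the study's 36 libraries were taken by their titles. They are opposite corners of a design in which each of 2 media was used with and without insulin stimulation. HepG2 is a human hepatoma line that keeps many functions of hepatocytes, the cell type the labels name. In HepG2-IGF1R-KO, IGF1R, which encodes the receptor for IGF-1, was disrupted, so every library here carries that genotype and none came from unedited cells. The resistant medium contained human insulin at 1 nM, glucose at 20 mM and palmitic, linoleic and oleic acids at 0.5 mM, and for the later stimulation the cells received human insulin at 3 nM over 18 h. The untreated group carries the same 72 h label and was kept in serum-supplemented DMEM, whose glucose and insulin content the labels do not give. Medium and stimulation changed together, so their parts in a difference cannot be told apart within these 18 libraries. The labels call the 9 libraries of a group biological replicates but do not say that they were separate cultures or whether the knockout is 1 clone, so p-values measure the spread between these libraries, which may be technical.

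In hepatocytes, insulin acts through its receptor and the kinase AKT to keep the transcription factor FOXO1 out of the nucleus, which lowers genes of glucose production, and it raises lipid synthesis through the transcription factor SREBP-1c. Long exposure to insulin, glucose and fatty acids is a common way to make cultured liver cells respond less to insulin. NF-kB is a family of transcription factors that turns on chemokine, adhesion and survival genes after many immune and stress signals. LEAP2, named in the study's title, encodes a peptide of liver and gut that blocks the ghrelin receptor.

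Levels are CPM, the count of a gene relative to the library total, scaled with TMM, a factor per library chosen so that most genes are level between libraries. Fold changes are resistant medium plus insulin over normal untreated, on the log2 scale with the standard error (SE), and a gene is called where its adjusted p from edgeR's quasi-likelihood test is under 0.05. Of 17222 genes tested, 2537 were called higher and 2933 lower, which is 31.8% of them in either direction, 14.7% higher and 17% lower, and the median log2 fold change of all genes was 0.02. In 8.68% of genes the 9 libraries of one group did not overlap with the 9 of the other (3.45% higher and 5.23% lower). Library totals ran from 59.9M to 116.8M counts in the untreated group and from 60.3M to 73.3M in the other.

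Libraries of a group fell into 3 sets, replicates 1 to 3, 4 to 6 and 7 to 9, whose members deviated from the group mean together (median correlation across genes 0.707 over 18 pairs, against -0.477 over 54 pairs from different sets). With the counts of each set summed, 3 sets against 3, 377 genes were called higher and 620 lower of 19688 (5.06%, or 1.91% and 3.15%), and 335 and 573 of these were also called over 18 libraries, with none in the opposite direction. By the labels' batch dates, the untreated group had 4 libraries of 22 April, 2 of 11 April and 3 of 24 May, and the resistant group had 3, 6 and 0. Within the 22 April batch 717 genes were called higher and 824 lower, and within the 11 April batch 786 and 730. The 24 May batch, which is replicates 4 to 6 of the untreated group, has no counterpart. Comparisons within replicates 4 to 6 are therefore between libraries of different batch dates. Within those of 22 and 11 April the log2 fold changes of 4 genes described below were -4.90 and -4.74 for G6PC1, 3.74 and 3.60 for CXCL8, -1.85 and -1.71 for FGA and -0.82 and -0.80 for LEAP2, all called.

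The cell type labelled is hepatocyte, and hepatocyte markers were present, but collagens and other stromal markers were among the most abundant transcripts of all 18 libraries. The summed CPM of 24 hepatocyte markers was 9244 to 17013 in untreated libraries and 6038 to 7133 in resistant libraries with insulin, so the groups did not overlap. Stromal markers, 24 genes, summed to 25919 to 69038 CPM and 35802 to 74304 CPM, which overlap. Replicates 4 to 6 differed most in this respect, with stromal sums of 25919 to 31147 CPM untreated against 61219 to 69835 CPM. Replicates 1 to 3 differed in the other direction, with 44828 to 50385 CPM untreated against 35802 to 44560 CPM. Stromal sums were alike in replicates 7 to 9, with 64454 to 69038 CPM against 60719 to 74304 CPM. The hepatocyte sums of replicates 7 to 9 still did not overlap, at 9244 to 10302 CPM against 6038 to 6949 CPM. In bulk RNA, fewer cells of a type and less RNA per cell cannot be told apart. The part of the hepatocyte level in the results that follow was not tested beyond 1 measurement: with libraries scaled to 21 hepatocyte marker genes in place of TMM, the median of all genes moved up by 0.45, 12059 genes were called higher and 638 lower (73.7%, or 70% and 3.7%), and the counts of each list under that scaling are given below.

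**Figure D1:**
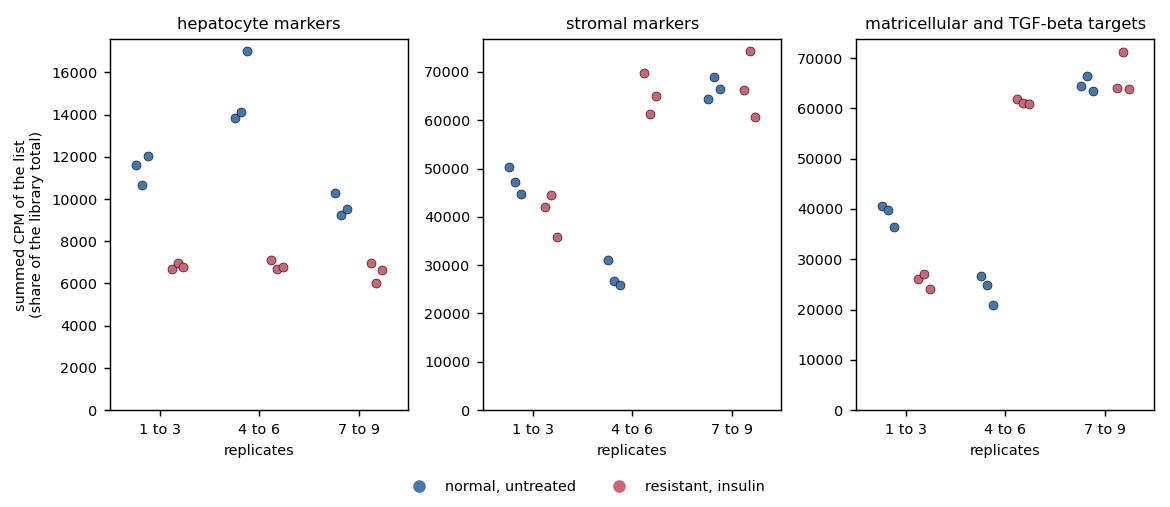
Summed CPM of the hepatocyte, stromal and matricellular lists in each library, by set of 3 replicates, as shares of the library total on linear axes starting at 0. Hepatocyte sums are lower with resistant medium and insulin in each set. With resistant medium and insulin, stromal and matricellular sums are lower in replicates 1 to 3 and far higher in replicates 4 to 6. They are alike in replicates 7 to 9.

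The targeted gene, IGF1R, was transcribed at 82.9 to 144 CPM in untreated libraries (median 103) and at 75.5 to 120 CPM in resistant libraries with insulin (median 106). Its log2 fold change was -0.19 ± 0.12 (SE, adjusted p = 0.237). It was called with a term for library set (-0.18, adjusted p = 0.0326) and with that term and without replicates 4 to 6 (-0.33, adjusted p = 1.61e-05), and not with sets summed (adjusted p = 0.695). With no unedited control, this level shows nothing about the edit.

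Genes of glucose production fell together. Of 20 tested members of the gluconeogenesis and FOXO1 target list, 10 fell and none rose, with a median log2 fold change of -0.50, and 8 had groups that did not overlap. G6PC1, the glucose-6-phosphatase that releases free glucose, stood at 3.31 to 4.78 CPM in untreated libraries (median 3.96) and at 0.0832 to 0.198 CPM in the resistant group with insulin (median 0.129). No library came near the other group, and 6 to 13 counts per library remained where 198 to 546 had been. That is a log2 fold change of -4.78 ± 0.15 (SE, adjusted p = 2.55e-14), or 27.5-fold lower. PCK1, which makes phosphoenolpyruvate and with G6PC1 controls the pathway, went from 5.15 to 9.32 CPM (median 6.73) to 1.58 to 2.88 CPM (median 1.79), again without overlap. Its log2 fold change was -1.88 ± 0.12 (SE, adjusted p = 4.44e-10).

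The regulators of this pathway did not all move. KLF15, a transcription factor of amino acid use and gluconeogenesis, fell from a median of 7.72 CPM (range 6.26 to 12.7) to 1.21 CPM (1.02 to 1.93). PPARGC1A, the coactivator that works with FOXO1 on these promoters, fell from 8.84 CPM (6.6 to 11.8) to 2.67 CPM (2 to 3.03). Both pairs of groups were apart, with log2 fold changes of -2.67 ± 0.15 and -1.72 ± 0.11 (SE). IGFBP1, a secreted binding protein and classic insulin-repressed FOXO1 target, fell from 438 CPM (302 to 780) to 136 CPM (105 to 141), a log2 fold change of -1.86 ± 0.15 (SE, adjusted p = 1.14e-08). BCL6, a repressor that FOXO1 also controls, fell by 1.10 ± 0.05 (SE). In contrast to these targets, FOXO1 itself had 17 to 33.5 CPM untreated and 17.1 to 30.6 CPM with resistant medium and insulin, a log2 fold change of 0.08 ± 0.16 (SE, adjusted p = 0.727). The receptor substrate IRS2 (0.34 ± 0.17, adjusted p = 0.145) and the pyruvate dehydrogenase kinase PDK4 (-0.57 ± 0.38, adjusted p = 0.26), other FOXO1 targets, did not pass the test. Scaled to hepatocyte genes, 9 members of the list were lower and 9 higher, among them IRS2 (0.74, adjusted p = 0.00556) and FOXO1 (0.50, adjusted p = 0.0163), and G6PC1 was lower by -4.34.

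Because G6PC1 had the lowest log2 fold change of all list members, its promoter is shown, 250 bases before to 50 after the start site that RefSeq gives (GRCh38.p14, chr17:42900549-42900848, plus strand). Capitals mark TGTTTTT, the core of the insulin response element through which FOXO1 is known to act on this promoter, a motif chosen after the sequence had been read.
G6PC1: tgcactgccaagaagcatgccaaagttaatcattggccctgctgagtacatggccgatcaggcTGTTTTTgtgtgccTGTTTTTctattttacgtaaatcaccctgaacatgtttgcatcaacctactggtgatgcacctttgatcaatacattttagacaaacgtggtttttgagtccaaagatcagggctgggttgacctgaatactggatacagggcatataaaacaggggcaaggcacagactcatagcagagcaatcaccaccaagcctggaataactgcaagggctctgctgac
The motif begins at -187 and again at -173 on the plus strand. Counted on either strand, TGTTTTT was in 7.0% of 35116 RefSeq promoter windows of this length. Among key or most-changed genes with a window, it was in 3 of 20 that fell (G6PC1, PPARGC1A and CPT1A) and 2 of 13 that rose. A gene counts if any of its windows matches, so these counts and the share of windows are not on the same base. The match in G6PC1 was fixed in advance by the choice of motif. The FOXO motif GTAAACA was in 3.4% of all windows and, among the same genes, in that of CYP4F3 alone. A match describes the letters and does not show binding.

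The insulin receptor pathway itself moved little, with 1 of 22 tested members higher and 2 lower and a median of 0.03. INSR, the insulin receptor, fell from 61.7 CPM (58.7 to 76.4) to 39 CPM (35.6 to 42.9). The groups were apart and the log2 fold change was -0.71 ± 0.05 (SE, adjusted p = 1.28e-09). PDPK1, the kinase that switches on AKT, fell by 0.38 ± 0.06 (SE). The phosphatase PTPN1, which acts on the receptor, was at 0.15 ± 0.04 (SE, adjusted p = 0.00556), a call lost with sets summed (adjusted p = 0.378), within both batches (0.401 and 0.105) and within replicates 1 to 3 and 4 to 6 (0.664 and 0.0857). Scaled to hepatocyte genes, PDPK1 was not called (0.06, adjusted p = 0.553) and 18 members were higher and 1 lower.

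Glucose uptake and glycolysis showed the same uneven picture, with 1 of 23 members higher, 3 lower and a median of 0.12. The list's medians by set were -0.16, 0.45 and 0.11. Within replicates 1 to 3, 3 members were higher and 12 lower, beside 4526 and 4726 of all genes. The liver glucose transporter SLC2A2 accounted for the lowest value: untreated libraries had 35.8 to 47.1 CPM (median 37.9) and resistant libraries with insulin 7.61 to 10.2 CPM (median 9.13). Its groups lay far apart, at a log2 fold change of -2.12 ± 0.07 (SE, adjusted p = 6.15e-14). The other transporter SLC2A3 (-0.66 ± 0.08) and hexokinase 2, HK2 (-0.47 ± 0.08), also fell without overlap of the groups. With sets summed, adjusted p was 0.0565 for SLC2A3 and 0.126 for HK2, and with hepatocyte scaling HK2 was not called (-0.05, adjusted p = 0.694) and 16 members of the list were higher and 2 lower.

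**Figure D2:**
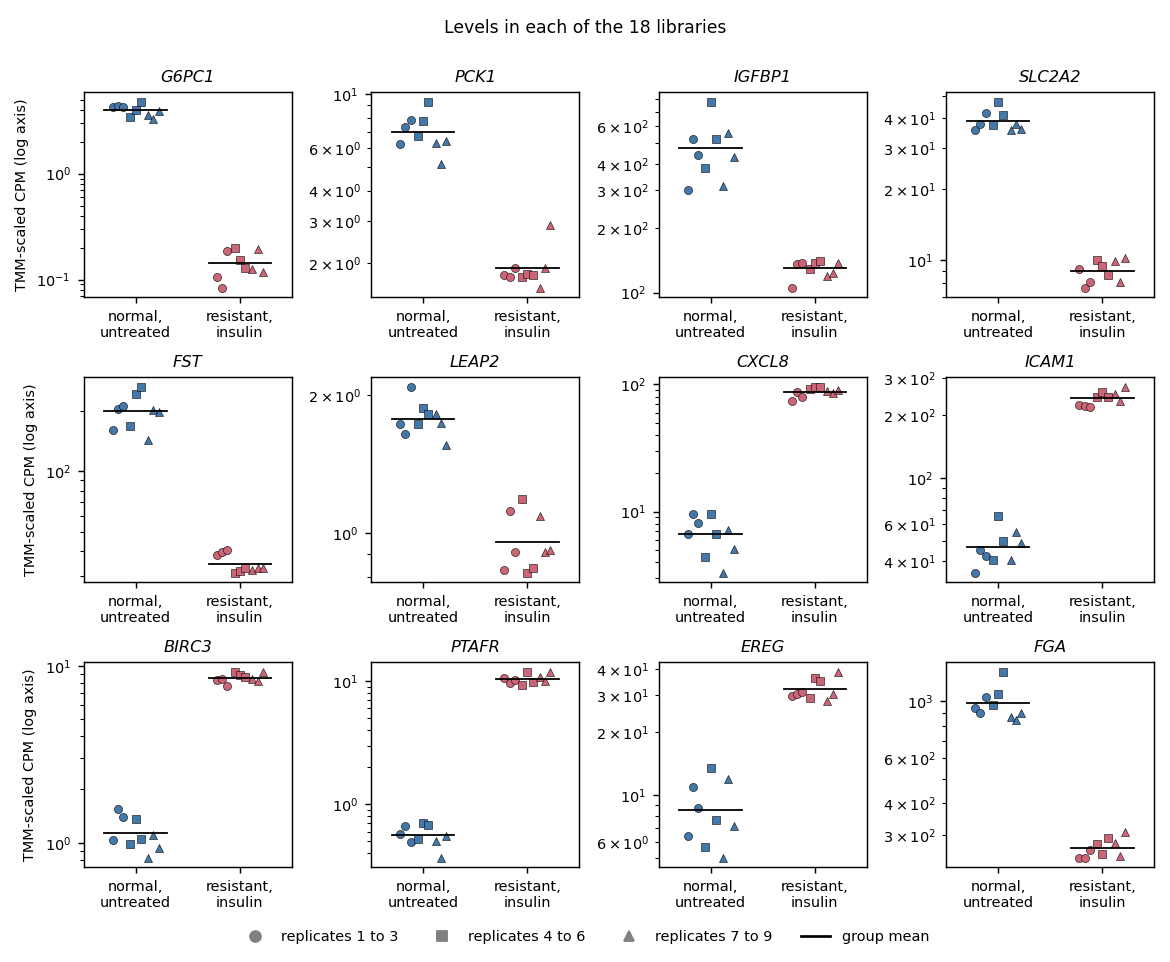
TMM-scaled CPM on log axes for 12 genes in each of the 9 normal untreated and 9 resistant plus insulin libraries, with marker shape for the set of 3 replicates and a line at the group mean. In each panel the groups do not overlap; G6PC1, PCK1, IGFBP1, SLC2A2, FST, LEAP2 and FGA are lower with resistant medium and insulin, and CXCL8, ICAM1, BIRC3, PTAFR and EREG are higher.

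Lipid genes went in both directions. In the fatty acid and triglyceride synthesis list 5 of 20 tested members rose and 9 fell, with a median of -0.12. SREBF1, which encodes SREBP-1c, had 68.9 to 106 CPM untreated and 80.3 to 93.9 CPM in the resistant group with insulin, with means of 91 and 90.7 CPM (adjusted p = 0.97). The fatty acid synthase FASN was at 1365 ± 297 CPM and 1035 ± 85.1 CPM (SD, n = 9 each), overlapping ranges with a log2 fold change of -0.40 ± 0.11 (SE, adjusted p = 0.00803). The desaturase SCD, at 1777 ± 180 and 1648 ± 147 CPM, did not pass (-0.11 ± 0.07, adjusted p = 0.236). Clearer falls were those of MLXIPL, the glucose-sensing transcription factor ChREBP (-0.99 ± 0.12, adjusted p = 3.83e-06), and GPAM, the first enzyme of triglyceride synthesis (-0.73 ± 0.05, adjusted p = 7.26e-10), both with groups apart. Scaled to hepatocyte genes, 14 members of the list were higher and 2 lower, with SREBF1 at 0.45, SCD at 0.33 and FASN at 0.07, while MLXIPL (-0.51) and GPAM (-0.28) were still called lower. With sets summed, FASN was not called (adjusted p = 0.286), nor was it without replicates 4 to 6 (-0.20, adjusted p = 0.0962).

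Cholesterol synthesis and SREBP2 targets changed little, with 1 of 25 members higher and 4 lower and a median of -0.05. TM7SF2, a reductase late in the pathway, fell from 53.5 CPM (38.5 to 84.9) to 40.8 CPM (37.6 to 43.7), and these ranges overlap (-0.52 ± 0.11, adjusted p = 0.00136). None of the 25 was called with sets summed, and with hepatocyte scaling 21 were higher and none lower, with TM7SF2 at -0.04 (adjusted p = 0.589). With sets summed TM7SF2 had an adjusted p of 0.169. Without replicates 4 to 6 and with a term for library set, TM7SF2 was at -0.30 (adjusted p = 0.0118).

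Fatty acid oxidation and PPAR-alpha targets had 3 of 21 members higher and 13 lower, at a median of -0.20. CREB3L3, a fasting-responsive transcription factor, fell from 13.5 CPM (11.3 to 19.2) to 6.78 CPM (5.18 to 8.47), with groups apart (-1.05 ± 0.10, adjusted p = 1.13e-07). CPT1A, which brings fatty acids into mitochondria, changed less (-0.29 ± 0.09, adjusted p = 0.0202) and its groups overlapped. Against the direction of most of the list, VNN1, a pantetheinase and PPAR-alpha target, rose from 4.8 CPM (3.76 to 5.43) to 13.9 CPM (12 to 17.8), a log2 fold change of 1.64 ± 0.09 (SE, adjusted p = 7.10e-11) with groups apart. With sets summed 2 members were higher and 2 lower, CPT1A not among them (adjusted p = 0.424). With hepatocyte scaling 14 were higher and 3 lower, and CPT1A was at 0.14 (adjusted p = 0.348).

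Lipoprotein and lipid droplet genes fell more often than they rose, 11 against 3 of 21, with a median of -0.32. ANGPTL8, a secreted regulator of lipoprotein lipase that insulin and feeding are known to raise, rose from 3.68 CPM (2.34 to 6.22) to 8.99 CPM (7.38 to 9.82), a change of 1.17 ± 0.17 (SE, adjusted p = 2.70e-05) without overlap of the groups. PLIN5, a droplet protein at mitochondria (-2.30 ± 0.19), the lipoprotein components APOC3 (-1.33 ± 0.10) and APOA1 (-1.12 ± 0.12), and MTTP, which loads lipid onto lipoproteins (-1.01 ± 0.06), fell with groups apart. PLIN2, the main droplet coat protein of hepatocytes, rose from 82.3 CPM (61 to 109) to 115 CPM (108 to 119), and these ranges overlap (0.44 ± 0.08, adjusted p = 0.000463). The call of PLIN2 was lost with sets summed (adjusted p = 0.16) and within the batches of 22 and 11 April (0.125 and 0.174). With hepatocyte scaling 9 members of the list were higher and 7 lower.

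Bile acid synthesis was lower at its first step. CYP7A1, the rate-limiting enzyme, fell from 8.4 CPM (7.38 to 10.1) to 1.69 CPM (1.09 to 2.36). The ranges are well separated, and the log2 fold change was -2.32 ± 0.11 (SE, adjusted p = 8.36e-12). CYP8B1, which sets the ratio of bile acids, fell by 1.19 ± 0.14 (SE), and ABCG8, a sterol exporter, by 0.60 ± 0.09 (SE). In the list of LXR targets and bile acid genes 7 of 13 tested members fell and none rose, with a median of -0.40, and with hepatocyte scaling 2 were lower and 4 higher, with CYP7A1 at -1.86. ABCG8 was then at -0.14 (adjusted p = 0.0986), and with sets summed its adjusted p was 0.0977.

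Inflammation and NF-kB genes rose. Of 20 tested list members, 14 rose and none fell, with a median log2 fold change of 1.07, and 12 had groups that did not overlap. CXCL8, the neutrophil chemokine interleukin-8, had 3.3 to 9.56 CPM in untreated libraries (median 6.66) and 74 to 95.7 CPM in resistant libraries with insulin (median 88.7). Even the lowest library of the second group was far above the highest of the first, and the log2 fold change was 3.70 ± 0.17 (SE, adjusted p = 8.43e-12). ICAM1, an adhesion molecule for leukocytes, rose from 45.4 CPM (35.2 to 65.5) to 244 CPM (219 to 273), a log2 fold change of 2.36 ± 0.10 (SE, adjusted p = 1.14e-12). CXCL5, a chemokine related to CXCL8, went from 1 to 47 counts per library to 224 to 311, or 4.04 ± 0.48 (SE, adjusted p = 3.06e-06); its adjusted p was 0.0664 with sets summed.

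Feedback inhibitors of NF-kB rose beside the effectors. TNFAIP3, the A20 protein that shuts the pathway off, rose from 29.2 CPM (21.9 to 40.6) to 107 CPM (94.4 to 117), and NFKBIA, the inhibitor IkB-alpha, from 26.3 CPM (21.2 to 30.5) to 57 CPM (53.4 to 66.5). BIRC3, an inhibitor of apoptosis, rose from 1.05 CPM (0.821 to 1.56) to 8.46 CPM (7.66 to 9.26). All 3 had groups apart, with log2 fold changes of 1.80 ± 0.09, 1.21 ± 0.07 and 2.91 ± 0.11 (SE). The chemokine CXCL2 (2.08 ± 0.22) and the cytokine IL32 (1.71 ± 0.10) rose as well, as did the cytokine IL18 (1.71 ± 0.12), which is not on the list. Of the list, 6 members did not pass the test. They were CXCL1 (-0.36), IL6 (-0.57), IL1B (-0.04), CCL2 (0.39), TNFAIP2 (0.16) and TRAF1 (0.21), so not every chemokine and cytokine rose. Leukocyte marker sums were 676 to 1267 CPM untreated and 988 to 1133 CPM with resistant medium and insulin, mostly LYZ, and 10 of the 13 leukocyte markers had means under 1 CPM in each group, CD14 passing that level only untreated and ITGAM only in the resistant group. Without replicates 4 to 6, the inflammation list had 15 members higher and 1 lower, beside 19.4% and 16.3% of all genes (35.7% in all). With sets summed it had 10 and none, and within replicates 7 to 9, where stromal levels were alike, 15 and none beside 10.6% and 9.66% of all genes (20.3% in all). With hepatocyte scaling 17 were higher and none lower.

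The promoters of CXCL8 and ICAM1 are shown because both rose and each holds a 9-base NF-kB sequence, GGAATTTCC, a form chosen after reading the windows. They run from 250 bases before to 50 after the RefSeq start site in GRCh38.p14, CXCL8 at chr4:73740319-73740618 and ICAM1 at chr19:10270870-10271169, both on the plus strand, and capitals mark the motif, which in ICAM1 is on the minus strand and so is written there as its reverse complement.
CXCL8: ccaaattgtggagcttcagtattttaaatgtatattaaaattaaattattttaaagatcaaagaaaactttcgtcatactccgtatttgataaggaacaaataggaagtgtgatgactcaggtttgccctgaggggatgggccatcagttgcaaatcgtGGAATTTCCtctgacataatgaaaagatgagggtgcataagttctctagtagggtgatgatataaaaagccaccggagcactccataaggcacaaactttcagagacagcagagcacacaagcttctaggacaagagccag
ICAM1: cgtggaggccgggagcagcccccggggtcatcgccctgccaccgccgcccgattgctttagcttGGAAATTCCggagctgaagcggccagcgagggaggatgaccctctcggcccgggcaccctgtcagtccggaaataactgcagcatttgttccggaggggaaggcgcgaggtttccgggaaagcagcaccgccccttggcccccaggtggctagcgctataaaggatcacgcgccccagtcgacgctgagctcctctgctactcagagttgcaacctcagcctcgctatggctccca
The 9-base sequence begins at -91 in CXCL8 and at -186 in ICAM1, and 162 of 35116 promoter windows hold it on either strand (0.5%). Among key and most-changed genes with a window, it was in 2 of 13 that rose, CXCL8 and ICAM1 themselves, and 0 of 20 that fell. These 2 matches were fixed in advance, because the form was chosen from their promoters. The general NF-kB form is GGG and CC with any 5 bases between them. Searched on both strands, it was in 58.7% of all windows, in 12 of 13 risen genes and in 9 of 20 fallen ones. A gene counts if any of its windows matches, so counts of genes and shares of windows are not on the same base. A TATA box sequence, TATAAA, was at -31 in CXCL8, -30 in ICAM1 and -29 in G6PC1, and in 11.5% of all windows.

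Interferon, MHC class I and immunoproteasome genes rose by smaller amounts, 10 of 20 members with none lower and a median of 0.31. OAS1, an antiviral enzyme, rose from 6.98 CPM (5.92 to 9.89) to 16.5 CPM (15.2 to 19.3), with groups apart (1.28 ± 0.09, adjusted p = 1.63e-09). TAP1, the peptide transporter of antigen presentation, rose by 0.54 ± 0.05 (SE). The groups did not overlap for 4 of the 20 members, OAS1 and TAP1 among them. With sets summed 2 were called, without replicates 4 to 6 the list had 16 higher, with hepatocyte scaling 18, and the median by set was 0.66, 0.14 and 0.13.

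**Figure D3:**
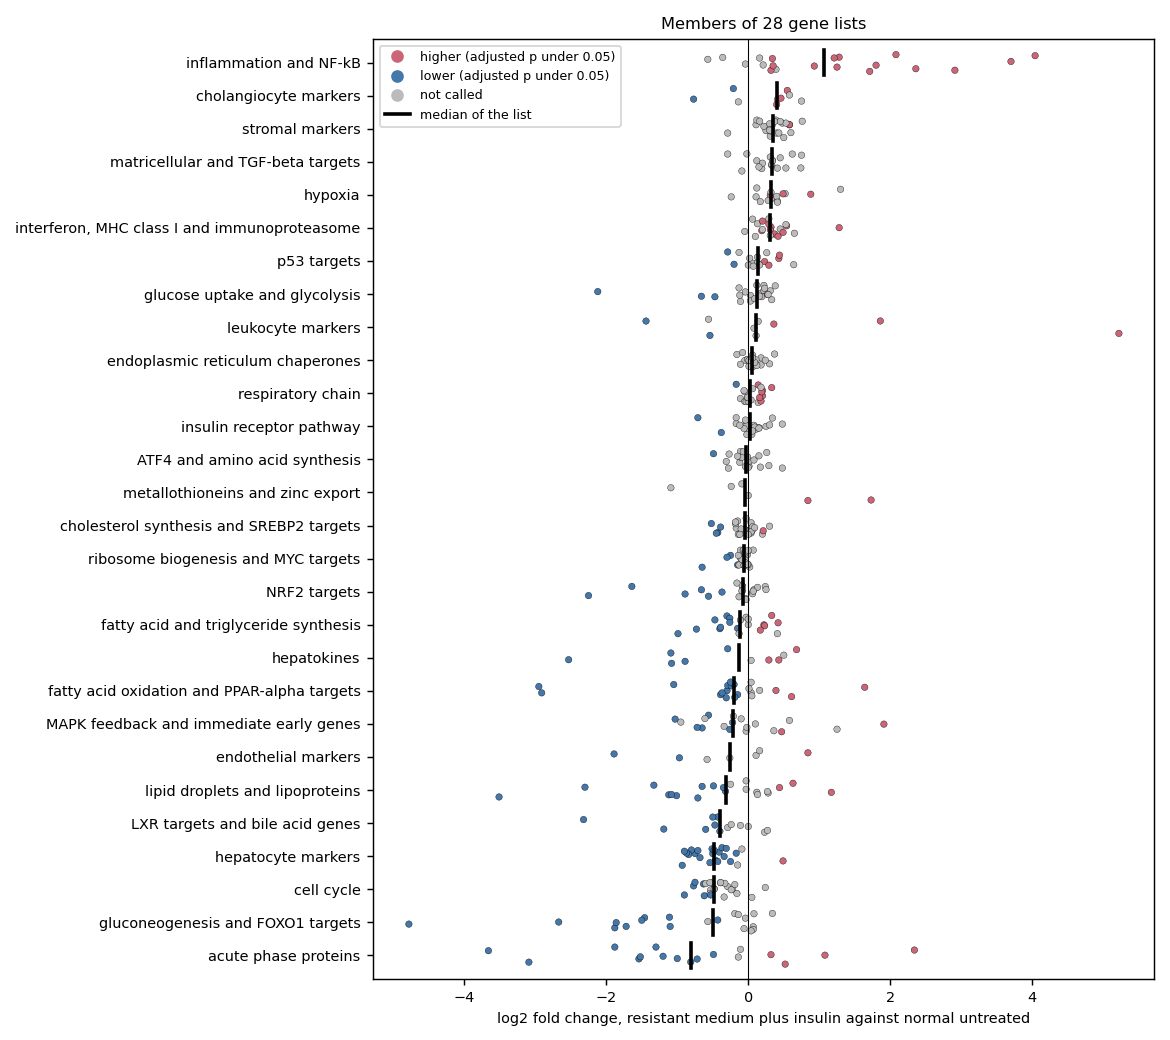
Log2 fold change of each tested member of 28 gene lists, ordered by the list's median (black bar), with members called higher in red, called lower in blue and not called in grey. The inflammation list has the highest median, 1.07, and acute phase proteins the lowest, -0.81, with members called in both directions.

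Acute phase proteins, which the liver secretes in inflammation, mostly fell while inflammatory genes rose. Of 17 tested members 11 fell and 4 rose, with a median of -0.81, and 13 had groups apart. FGA, the fibrinogen alpha chain, had 843 to 1307 CPM untreated (median 947) and 245 to 308 CPM in resistant libraries with insulin (median 262). The ranges were far apart (-1.88 ± 0.08, adjusted p = 1.35e-12), and FGB, the beta chain, fell likewise by 1.54 ± 0.08 (SE). ITIH3, a protease inhibitor chain (-1.20 ± 0.06), and HP, haptoglobin (-1.30 ± 0.11), were also lower. HAMP, the iron hormone hepcidin, fell from 3.63 CPM (2.34 to 6.16) to 0.246 CPM (0.104 to 0.544), a log2 fold change of -3.66 ± 0.27 (SE, adjusted p = 3.14e-09). CP, the copper-carrying ferroxidase ceruloplasmin, moved against them, from 3.96 CPM (2.73 to 5.19) to 19.4 CPM (16.2 to 24.1), a rise of 2.34 ± 0.11 (SE, adjusted p = 5.62e-12) with groups apart. These secreted proteins are hepatocyte products, and with hepatocyte scaling 10 members were lower and 6 higher, with a median of -0.34, FGA at -1.42 and CP at 2.79.

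LEAP2 was low in both groups and lower with resistant medium and insulin. Untreated libraries had 1.56 to 2.09 CPM (median 1.74), from 93 to 222 counts, and resistant libraries with insulin had 0.818 to 1.19 CPM (median 0.91), from 48 to 81 counts. No library of one group reached the other. The log2 fold change was -0.89 ± 0.09 (SE, adjusted p = 3.09e-07), and the difference of mean log2(CPM + 0.5) was -0.65, with an exact two-sided permutation p of 4.11e-05, the smallest that 48620 splits allow. These splits exchange single libraries, although those of a set deviated together, so there are fewer independent units than libraries; with sets summed edgeR gave an adjusted p of 0.0138. Without replicates 4 to 6 the difference was -0.63 (exact permutation p = 0.00216, the smallest possible with 6 against 6). By set the log2 ratio was -0.68, -0.68 and -0.58. Scaled to hepatocyte genes the log2 fold change was -0.44 (adjusted p = 0.00154).

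In the hepatokine list of secreted liver factors, which includes LEAP2, 5 of 10 tested members fell and 3 rose, against 4 lower and 6 higher with hepatocyte scaling and 4 lower and none higher with sets summed. FST, follistatin, which binds activins, fell from 201 CPM (144 to 264) to 32.8 CPM (31.1 to 40.5), with groups far apart (-2.53 ± 0.11, adjusted p = 1.18e-12). SELENOP, the selenium carrier, fell by 1.09 ± 0.08 (SE), and FETUB, fetuin-B, by 1.08 ± 0.15 (SE). The stress hormone GDF15, from the ATF4 list, ranged from 99.2 to 266 CPM untreated and 114 to 144 CPM with resistant medium and insulin, and did not pass the test (-0.28 ± 0.14, adjusted p = 0.146).

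Hepatocyte identity genes fell as a group: 20 of 23 tested members fell and 1 rose, with a median of -0.48 and 12 with groups apart. ALB, albumin, had 6135 to 9613 CPM untreated (median 7317) and 3449 to 4352 CPM in resistant libraries with insulin (median 3807). Its groups did not overlap, and the log2 fold change was -0.93 ± 0.08 (SE, adjusted p = 2.77e-08). TF, transferrin (-0.80 ± 0.08), AGT, angiotensinogen (-0.90 ± 0.09), and the transcription factors CEBPA (-0.84 ± 0.10) and HNF4A (-0.54 ± 0.08) fell in the same way. AFP, a fetal liver protein outside the list that HepG2 cells secrete, fell from 4658 CPM (3744 to 6986) to 3010 CPM (2522 to 3500), a change of -0.69 ± 0.10 (SE, adjusted p = 2.70e-05). The list's median was -0.42, -0.73 and -0.21 in the sets of replicates 1 to 3, 4 to 6 and 7 to 9. Without replicates 4 to 6, 18 members were lower and 1 higher, and with sets summed 7 and none; AFP (adjusted p = 0.0553) and HNF4A (adjusted p = 0.0664) were then not called. With hepatocyte scaling, which uses 21 hepatocyte markers as its reference, 6 members were higher and 8 lower and HNF4A was not called (-0.08, adjusted p = 0.198).

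Stromal and matricellular genes gave no such result. Of 24 stromal markers 2 rose, DCN (0.58 ± 0.20, adjusted p = 0.0337) and LUM (0.58 ± 0.21, adjusted p = 0.0425), both small proteoglycans, and none fell. Their log2 ratios in the sets of replicates 4 to 6 and 7 to 9 were 0.45 and 0.12 for DCN and 0.26 and 0.01 for LUM. The call of DCN was lost on leaving out untreated replicate 1, 2 or 6 or resistant replicate 2 or 8 (0.49 to 0.57), and that of LUM on leaving out untreated replicate 1, 2, 3, 5 or 6 or any resistant replicate but 4 (0.48 to 0.59). FN1, fibronectin, ranged from 10737 to 37124 CPM and from 10596 to 40720 CPM in the groups, and COL1A1, a collagen I chain, from 7250 to 30093 CPM and from 10091 to 31592 CPM. With sets summed no stromal marker was called, and with hepatocyte scaling 16 were higher and none lower. FN1 and COL1A1 did not pass the test, at 0.34 ± 0.33 and 0.34 ± 0.31 (SE), and by set FN1 was -0.45, 1.38 and 0.05 and COL1A1 -0.46, 1.84 and -0.07. No matricellular or TGF-beta target of 18 was called, while the list's medians by set were -0.62, 2.16 and 0.03; with hepatocyte scaling 3 were higher and none lower.

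Growth and proliferation genes moved less evenly. Of 19 MAPK feedback and immediate early genes 2 rose and 6 fell, with a median of -0.21. EREG, the EGF-receptor ligand epiregulin, rose from 7.66 CPM (5.03 to 13.5) to 30.4 CPM (28.2 to 38.8), with groups apart (1.91 ± 0.17, adjusted p = 5.27e-08). PHLDA1 rose by 0.47 ± 0.10 (SE), while SPRY4, a feedback inhibitor of this pathway, fell by 0.72 ± 0.15 (SE) with log2 ratios of -1.25, -0.46 and -0.25 by set. With sets summed 1 member was higher and none lower, so that PHLDA1 (adjusted p = 0.171) and SPRY4 (adjusted p = 0.216) lost their calls. With hepatocyte scaling 7 were higher and none lower, with SPRY4 at -0.30 (adjusted p = 0.132). MYC, the growth regulator, fell from 177 CPM (150 to 266) to 124 CPM (104 to 139), without overlap (-0.65 ± 0.10, adjusted p = 3.07e-05). It was still called with sets summed (adjusted p = 0.0237) but not with hepatocyte scaling (-0.20, adjusted p = 0.0572).

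In the cell cycle list 6 of 24 members fell and none rose, with a median of -0.48, but no member had groups apart. E2F1, a driver of S phase, had 31.9 to 77.8 CPM and 29.3 to 36.3 CPM (-0.75 ± 0.16, adjusted p = 0.00147), and the replication helicase subunits MCM2 and MCM5 fell by 0.77 ± 0.17 and 0.90 ± 0.24 (SE). The list's medians by set were -0.24, -1.02 and -0.04. None of the 24 was called lower with sets summed or with hepatocyte scaling, and MCM5 had an adjusted p of 0.0707 within replicates 7 to 9.

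Of 21 NRF2 targets 6 fell and none rose, at a median of -0.08, and 3 of the 6 were aldo-keto reductases. AKR1C2, a steroid-reducing enzyme, fell from 55.8 CPM (44.6 to 103) to 12.7 CPM (10.7 to 14.1), a log2 fold change of -2.25 ± 0.14 (SE, adjusted p = 2.86e-10) with groups apart. AKR1C3 fell by 1.64 ± 0.12 and AKR1C1 by 0.66 ± 0.10 (SE), and because these paralogs share sequence, the split of reads among them is uncertain. With sets summed 2 members were lower and none higher, AKR1C1 not among the called (adjusted p = 0.073), and with hepatocyte scaling 3 were lower and 12 higher.

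Lists on protein folding and amino acid stress had medians near 0 over 18 libraries but not within each set. Of all genes, 14.7% were called higher and 17% lower over 18 libraries. The shares were 19.4% and 16.3% without replicates 4 to 6, and 70% and 3.7% with hepatocyte scaling. Of 22 endoplasmic reticulum chaperones none passed the test in either direction (median 0.05, range -0.16 to 0.37), although with hepatocyte scaling 22 were higher. The chaperones' medians by set were -0.26, 0.30 and 0.13. Within replicates 1 to 3, 1 was called higher and 16 lower, beside 4526 and 4726 of all genes. Within replicates 7 to 9, 9 were higher and none lower, beside 10.6% and 9.66% of all genes (20.3% in all). ATF4 and amino acid synthesis genes had 1 of 23 lower (median -0.03), with medians by set of -0.27, 0.29 and -0.07, 9 lower without replicates 4 to 6 and 12 higher with hepatocyte scaling. Ribosome biogenesis genes and MYC targets, a list that holds MYC, had 4 of 23 lower (median -0.06), with medians by set of -0.24, -0.06 and 0.07, and with hepatocyte scaling 20 higher and none lower. Respiratory chain genes had 7 of 22 higher and 1 lower at a median of 0.03; COX6C, a subunit of complex IV, was among them (0.33 ± 0.09, adjusted p = 0.0103), with ratios by set of 0.62, 0.29 and 0.01. With sets summed no member of that list was called (COX6C adjusted p = 0.28), nor was any within replicates 7 to 9, and with hepatocyte scaling 22 were higher.

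The most changed genes over the whole transcriptome were limited to called genes with a mean level of 5 CPM or more and 1 sign in the 3 sets. Of the 15 with the highest log2 fold changes, PTAFR led: this receptor for platelet-activating factor had 0.368 to 0.707 CPM untreated (median 0.552) and 9.36 to 11.9 CPM with resistant medium and insulin (median 10.2). With no overlap, its log2 fold change was 4.20 ± 0.11 (SE, adjusted p = 5.31e-15). CTSS, the protease cathepsin S of antigen processing, rose from 0.97 CPM (0.77 to 1.33) to 12.6 CPM (11.4 to 14.3), or by 3.68 ± 0.12 (SE). UBD, the ubiquitin-like protein FAT10 that cytokines induce, rose from 24.2 CPM (18.4 to 33.9) to 188 CPM (167 to 220), or by 2.95 ± 0.11 (SE). These 3 are immune genes, as are CXCL8, ICAM1, TNFAIP3, IL18 and IL32 among the 15.

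The others were the proteoglycan SPOCK2 (2.63), the deacetylase HDAC9 (1.98), CP, EREG, the long RNA HAGLR (2.02), the olfactory receptor pseudogene OR2I1P (3.13) and ICAM4-AS1 (2.25). OR2I1P has UBD as a neighbour and ICAM4-AS1 lies by ICAM1 and ICAM4, and how the counting treated strand is not given in the sources used here, so reads of overlapping genes may be shared.

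At the other end, CYP4F3, which inactivates leukotriene B4, fell from 19.8 CPM (15.2 to 23.2) to 2.3 CPM (1.98 to 2.75), and ALDH1L1, a folate enzyme of hepatocytes, from 21.7 CPM (17.8 to 31.4) to 2.88 CPM (2.43 to 3.49). Both had groups far apart and a log2 fold change of -3.02, with SE of 0.09 and 0.10. The amine oxidase MAOA (-2.26 ± 0.08), the alcohol dehydrogenase ADH4 (-2.02 ± 0.10), the trypsin inhibitor SPINK1 (-2.39 ± 0.15) and the serpin SERPINA11 (-2.21 ± 0.10) are also among the 15 falls. DLK1, a fetal liver surface protein, fell by 2.03 ± 0.12 (SE), and IGSF1 (-2.16), PLPPR1 (-2.40), COL2A1 (-2.25), FST, CYP7A1, AKR1C2, SLC2A2 and ESM1 (-2.86) complete them. In 29 of these 30 genes the groups did not overlap, and 29 were called with sets summed. All 30 were called in the same direction with hepatocyte scaling and without replicates 4 to 6. The 30 were chosen from these same libraries, as the largest fold changes among called genes of the same sign in every set. These counts were therefore largely fixed by the choice and are no separate test. Among all genes tested, 8.68% had groups that did not overlap and 5.06% were called with sets summed. With hepatocyte scaling 73.7% were called, and 35.7% were without replicates 4 to 6.

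**Figure D4:**
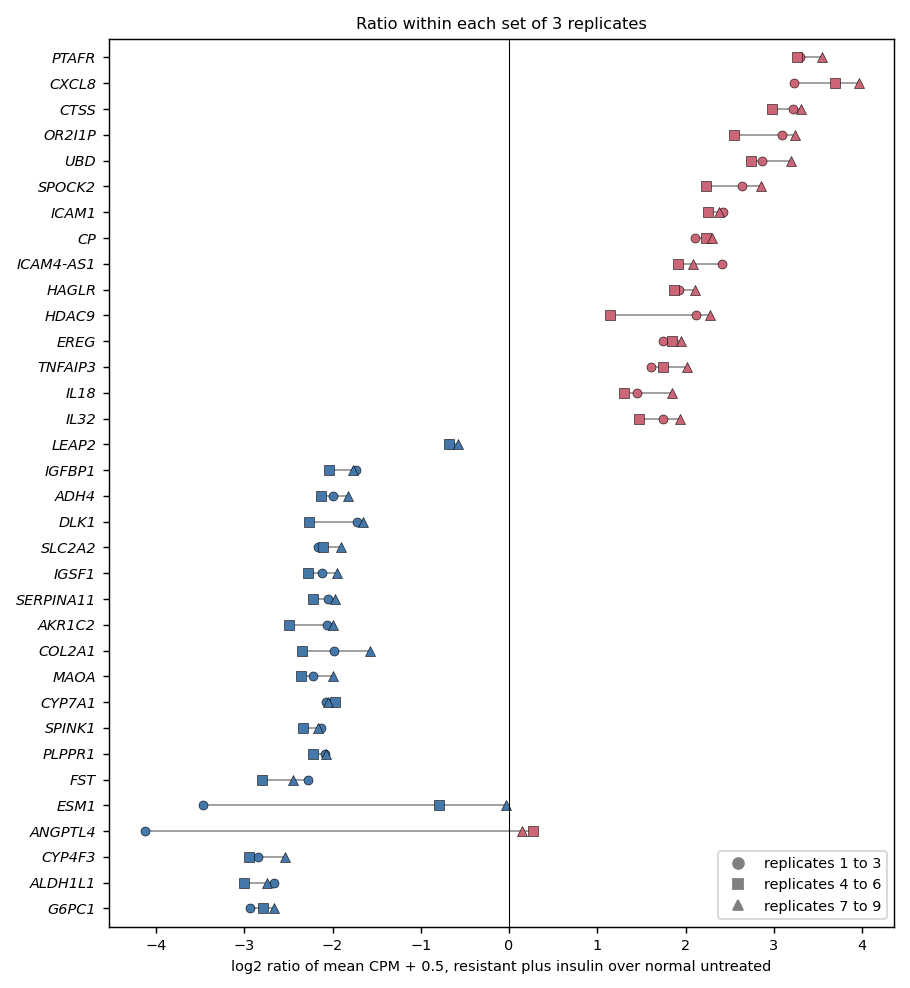
Log2 ratio of mean CPM + 0.5, resistant plus insulin over normal untreated, within replicates 1 to 3, 4 to 6 and 7 to 9, for the 30 most changed genes and for G6PC1, IGFBP1, LEAP2 and ANGPTL4. Most genes have 3 close ratios; ESM1 runs from -3.47 to -0.03 and ANGPTL4 from -4.13 to 0.27.

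The 1 gene of the 30 with overlapping groups was ESM1, an endothelial-type proteoglycan. It had 58 to 68.6 CPM in untreated replicates 1 to 3 and 1.69 to 4.46 CPM in untreated replicates 4 to 9, against 1.77 to 6.17 CPM in the resistant group. ANGPTL4, a PPAR target that inhibits lipoprotein lipase, had the same shape, with 20 to 22.6 CPM in untreated replicates 1 to 3, 0.538 to 1.25 CPM in the other 6 untreated libraries, and 0.54 to 1.54 CPM in the resistant group with insulin. Both were called, ESM1 at -2.86 ± 0.78 (SE, adjusted p = 0.00925) and ANGPTL4 at -2.91 ± 0.79 (SE, adjusted p = 0.00881). By set the falls were uneven: ANGPTL4 was at 0.44 within replicates 4 to 6 and 0.20 within replicates 7 to 9, where neither difference was called, ESM1 was at -0.94 (adjusted p = 0.000883) within replicates 4 to 6 and -0.03 (adjusted p = 0.925) within replicates 7 to 9, and with sets summed the adjusted p was 0.348 for ESM1 and 0.345 for ANGPTL4. The libraries of untreated replicates 1 to 3 came from batches of 22 and 11 April, and the cause was not tested.

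Levels in the other 2 groups, on the same scale, are given as a description without a test, over the 6 libraries of each that carry stromal transcripts. G6PC1 averaged 0.0824 ± 0.0416 CPM with insulin in normal medium and 0.145 ± 0.0579 CPM in resistant medium without stimulation (SD, n = 6). It averaged 3.99 ± 0.483 CPM in normal untreated and 0.144 ± 0.041 CPM in resistant plus insulin (SD, n = 9). For G6PC1, all 3 groups other than normal untreated thus lay far below it. Each of the 3 had received added insulin, since the resistant medium itself contained it at 1 nM. That medium also contained glucose and fatty acids, and the labels do not give the insulin content of normal medium. The part of insulin in the low G6PC1 levels was not tested. SLC2A2, at 39.1 CPM untreated, was at 9.98, 9.8 and 8.99 CPM in normal plus insulin, resistant untreated and resistant plus insulin. In the same order LEAP2, at 1.78 CPM untreated, was at 0.868, 1.05 and 0.958 CPM. The libraries left out had more LEAP2, at 1.75, 2.16 and 1.53 CPM in resistant untreated and 1.8, 1.08 and 1.46 CPM in normal plus insulin. Normal untreated had 1.56 to 2.09 CPM, and over all 9 libraries resistant untreated averaged 1.31 CPM and normal plus insulin 1.06 CPM.

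The inflammatory genes were instead high in both resistant groups. CXCL8 averaged 6.71 CPM in normal untreated and 19.2 CPM in normal plus insulin, against 111 CPM in resistant untreated and 87.4 CPM in resistant plus insulin. ICAM1 had 47.1 and 56.5 CPM in normal medium against 300 and 241 CPM in resistant medium, and PTAFR 0.562 and 0.428 CPM against 11.9 and 10.4 CPM. IGFBP1 (472 and 553 CPM against 156 and 130 CPM) and AKR1C2 (58.5 and 83 CPM against 13.7 and 12.4 CPM) were low in both resistant groups. CXCL8 was also higher with insulin within normal medium.

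HK2 and EREG had their highest mean in normal medium plus insulin. HK2 averaged 212 ± 66.7 CPM there, against 88.1 ± 7.31 CPM in normal untreated, 64.7 ± 3.67 CPM in resistant untreated and 63.4 ± 9.79 CPM in resistant plus insulin (SD). EREG averaged 80.5 CPM there, against 8.55, 34.3 and 32.1 CPM. VNN1 was lowest in that group, at 2.43 CPM, against 4.63 CPM in normal untreated and 15.2 and 14.5 CPM in the resistant groups.

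**Figure D5:**
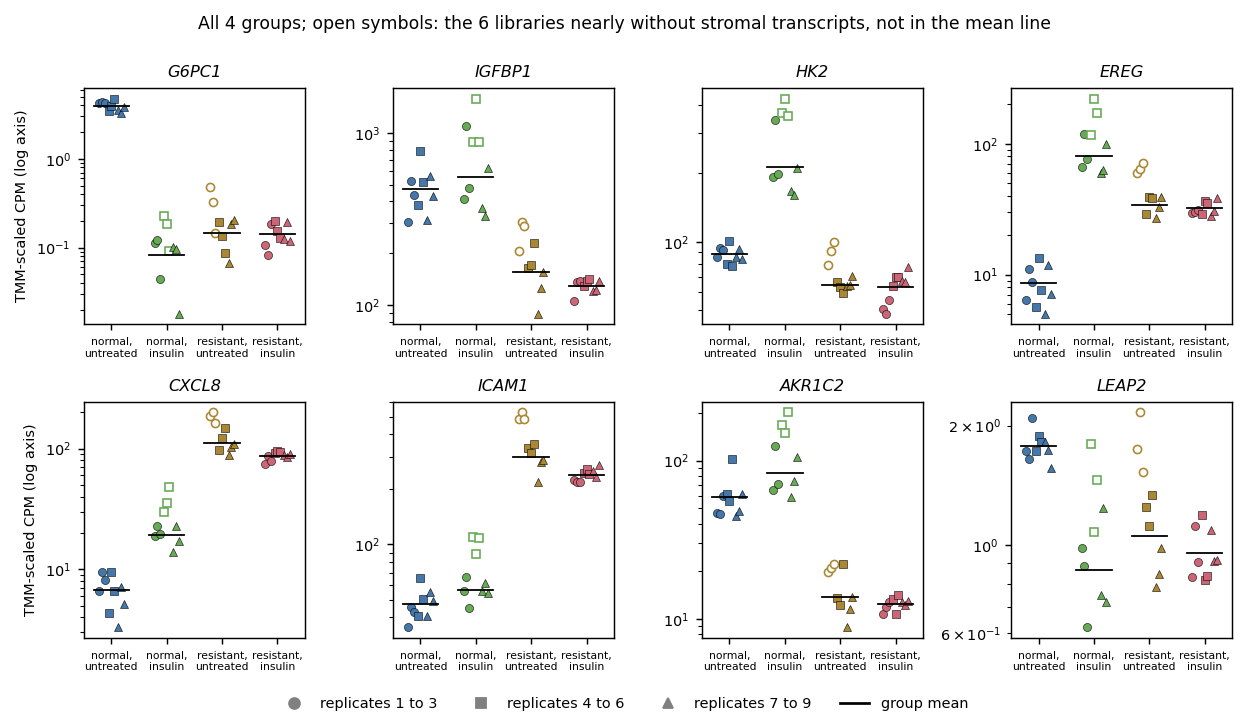
TMM-scaled CPM on log axes of 8 genes in all 36 libraries by group, with marker shape for the set of 3 replicates, open symbols for the 6 libraries nearly without stromal transcripts and a line at the mean of the others. G6PC1 is highest in normal untreated, as is LEAP2 over the filled symbols. For LEAP2 the open symbols of resistant untreated, at 1.75, 2.16 and 1.53 CPM, lie in or near the range of normal untreated (1.56 to 2.09 CPM). So does an open symbol of normal plus insulin at 1.8 CPM. CXCL8 and ICAM1 are high in both resistant groups, and HK2 and EREG are highest in normal medium plus insulin.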

How the data were processed

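The authors deposited 1 table of expected counts (reads estimated to belong to each Ensembl gene) for 57771 genes in 36 libraries, and 15.5% of values were not whole. Per the labels' protocols, RNA was isolated on columns with DNase, poly-A RNA was selected and libraries were made with a strand-specific kit. STAR, Salmon and the build GRCh37 are named in the submitters' processing notes, while for their versions, the annotation and the counting settings the labels say nothing. Symbols, for 51994 genes (90.0%), came from a GRCh38 annotation by Ensembl identifier.

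Groups came from the titles. The 18 libraries compared were fitted alone with edgeR 4.0.16 in R 4.3.3 on rounded counts (TMM, filterByExpr, robust quasi-likelihood F-test, no covariate), with Benjamini-Hochberg adjustment over 17222 genes. TMM assumes that most genes do not differ, so a level is relative to the other transcripts of its library. Marker sums are CPM of the library total. LEAP2 was also tested by exact permutation. No 2 libraries of a group agreed within sampling noise (lowest chi-square per gene 5.93). The count test was tested on simulated data with known changes. Those libraries were drawn independently, without sets, so the simulation cannot show the error rate where libraries of a set deviate together.

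The genes named are 30 key genes, the 15 highest and 15 lowest fold changes described in the text, and from each list at most the 4 members of smallest adjusted p; HAMP, HP, CXCL5, CXCL2, NFKBIA, HNF4A and APOA1 were added after their values were seen. The genes, the 28 lists (552 entries, 546 in the table) and the tests were chosen with earlier results of these data known. Some results of genes that meet the rule are not reported here. Alternatives were DESeq2 1.42.0, its size factors, averaged TMM factors, hepatocyte scaling, other filters, batch, set and replicate terms, fits of all 36 libraries, fits within a set or batch, summed sets, a minimum fold of 1.2 and leaving out each library.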

Additional observations from a re-analysis of the deposited data

Results flagged for a closer look

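In 19 of 218 sets of 9 libraries (a gene in a group), 1 library lay farther from its nearest neighbour, as a share of the group's range, than the 95% limit of Dixon's test, which chance alone passes in about 1 of 20. Untreated replicate 6 was the highest in 13 of them: FGA at 1307 CPM, FGB at 842, ALB at 9613, HP at 39.7, APOA1 at 1566, APOC3 at 22.2, SPINK1 at 27, AKR1C1 at 320, AKR1C2 at 103, AKR1C3 at 180, OAS1 at 9.89, LYZ at 1133 and SPP1 at 162 CPM. That library also had the highest hepatocyte marker sum, 17013 CPM, and the lowest stromal sum, 25919 CPM, of the 18. Untreated replicate 5 was highest for INSR at 76.4, PDPK1 at 156 and GPAM at 122 CPM. In the resistant group with insulin, replicate 9 was highest for PCK1 at 2.88 CPM, replicate 1 highest for KLF15 at 1.93 CPM, and replicate 3 lowest for SREBF1 at 80.3 CPM. No call of these genes was lost when that library was left out.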

How the results depend on the processing

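Of 109 genes checked, 100 of them called, all kept their call and direction with DESeq2, with its size factors and with averaged TMM factors; 27 calls were lost with sets summed, 19 within the 22 April batch, 18 within the 11 April batch and 13 in the fit of 36 libraries with group and batch terms, none with a change of direction. The numbers of genes higher and lower were 12059 and 638 with hepatocyte scaling, 1034 and 1406 in 36 libraries with a batch term, 1368 and 1731 without it, 377 and 620 with sets summed, 4526 and 4726 within replicates 1 to 3, 4567 and 4673 within replicates 4 to 6, 717 and 824 and then 786 and 730 within the batches of 22 and 11 April, and 568 and 1083 at a minimum fold change of 1.2; within replicates 7 to 9, 1661 were lower. Leaving out each library gave 2131 to 2892 higher and 2524 to 3135 lower, and for LEAP2 a difference of -0.68 to -0.62. The share of calls that were higher was 46.4%, against 95% with hepatocyte scaling and 34.4% at the minimum fold; it was 42.1% with averaged TMM factors. With hepatocyte scaling PDPK1 (0.06), SREBF1 (0.45), FASN (0.07), SCD (0.33) and CPT1A (0.14) changed sign, as did SREBF1 (0.24), FN1 (-0.46) and COL1A1 (-0.47) within replicates 1 to 3, ANGPTL4 within replicates 4 to 6 (0.44) and 7 to 9 (0.20) and CPT1A within replicates 7 to 9 (0.01); the cause was not tested. Same-numbered libraries of the groups did not deviate together (correlations -0.57 to 0.641, median 0.13, and 0 of 9 best with their own number). The numbers therefore do not pair them. Between the groups, libraries of the same set had median correlations of 0.13, -0.452 and 0.52 for replicates 1 to 3, 4 to 6 and 7 to 9. Sets are thus matched by number only in ratios and fits by set. A replicate block gave 2520 genes higher and 2758 lower. Depth, at 59.9M counts or more per library, limits only genes of a few counts, such as G6PC1 in the resistant group.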

Other observations

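Marker lists of other cell types held members called in both directions. ITGAM, an integrin chain of myeloid cells, had 2 to 8 counts per library in untreated cells and 98 to 159 with resistant medium and insulin, or 0.0309 to 0.0912 CPM against 1.59 to 2.4 CPM (5.22 ± 0.18, adjusted p = 9.39e-14). CD14, the monocyte co-receptor for endotoxin that hepatocytes also make, fell by 1.44 ± 0.38 (SE, adjusted p = 0.00725), with ratios by set of -0.16, -1.54 and -0.91. LYZ, lysozyme, was abundant at 825 ± 128 and 1061 ± 78.8 CPM (SD, n = 9 each) and rose by 0.36 ± 0.08 (SE, adjusted p = 0.00148). The leukocyte list as a whole had 3 of 9 tested members higher and 2 lower, and 4 of its 13 members were at 0 in every library of both groups. With sets summed 2 were higher and none lower, and the calls of CD14 (adjusted p = 0.343) and LYZ (adjusted p = 0.173) were lost; with hepatocyte scaling 5 were higher and 1 lower. ITGAM averaged 0.0397 CPM in normal medium plus insulin and 2.77 CPM in resistant untreated. Of 7 endothelial markers 1 was higher and 2 lower, among them the junction protein CDH5, which fell by 1.89 ± 0.17 (SE); with hepatocyte scaling 2 were higher and 2 lower. Of 9 cholangiocyte markers 3 were higher and 2 lower, with the keratin KRT19 at 0.55 ± 0.11 and the secreted protein SPP1 at -0.77 ± 0.14 (SE). With sets summed KRT19 was not called (adjusted p = 0.159), and with hepatocyte scaling 6 of the list were higher and 1 lower.

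Some members of smaller lists were also called. Over all genes 31.8% were called, 14.7% higher and 17% lower, and with hepatocyte scaling 70% were higher and 3.7% lower. Counts of these lists are to be read beside those shares. MT1G, a metal-binding metallothionein whose paralogs share sequence, rose from 0.756 CPM (0.535 to 1.45) to 2.94 CPM (2.12 to 3.35), without overlap (1.73 ± 0.16, adjusted p = 1.04e-07), while 2 of 6 tested members of its list rose and none fell (3 and none with hepatocyte scaling). Hypoxia genes had 3 of 15 higher and none lower, and 13 were higher with hepatocyte scaling. Among the 3 were the oxidase ERO1A at 0.49 ± 0.05 (SE, adjusted p = 4.07e-07) and the carbonic anhydrase CA9 at 0.88 ± 0.17 (SE, adjusted p = 0.000419). The hypoxia list's medians by set were 0.22, 0.79 and -0.00, with 7 higher and 6 lower within replicates 1 to 3. Among 16 p53 targets 4 rose and 2 fell, including the cell cycle inhibitor CDKN1A (0.43 ± 0.11), whose ratios by set were 0.93, 0.38 and 0.08, and the death receptor FAS (0.44 ± 0.07), at 0.48, 0.62 and 0.22. With sets summed no p53 target was called (adjusted p = 0.319 for CDKN1A and 0.136 for FAS), and with hepatocyte scaling 15 were higher and none lower.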
